A study of Mus musculus with 58 samples.

Results

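The response of wild-type (WT) mouse CD4+ T cells to a higher against a lower dose of T cell receptor stimulus was measured by RNA-seq after 24 h of culture, in 8 of the 58 libraries of the series. The 4 weak-stimulus libraries came from cells cultured on plates coated with anti-CD3 at 0.5 µg/ml, and the 4 very-weak-stimulus libraries from cells on plates coated at 0.25 µg/ml. The 8 libraries were chosen by their labels and joined into 4 pairs by replicate number. Both groups were WT, with neither Cre nor an altered miR-17~92 allele named in the labels, and both also received plate-bound anti-CD28 at 0.2 µg/ml and IL-2 at 50 U/ml in the medium. The starting cells were naive CD4+ T cells, taken with a commercial kit from lymph nodes and spleens that were pooled from 10 male and female mice. The series also holds naive WT cells, the same stimuli at 48 h, cells in which Cre under Cd4 control deletes the miR-17~92 microRNA cluster (KO) and cells with a Cre-activated miR-17~92 transgene (TG). The labels do not say whether libraries of a group came from separate pools or cultures. The p-values rest on the spread of the differences within these pairs of libraries, part of which may be technical. That spread was estimated with information shared across genes.

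Anti-CD3 binds the CD3 chains of the T cell receptor (TCR) complex and stands in for antigen, and anti-CD28 stands in for the costimulatory ligands of antigen-presenting cells. Receptor ligation opens the calcium, calcineurin and NFAT route, the RAS, ERK and AP-1 route and the PKC-theta and NF-kB route. These routes meet at the promoters of cytokine genes such as Il2. The amount of receptor signal sets how many cells enter activation and how much cytokine they make, and CD28 and IL-2 act on growth and survival beside it.

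Libraries were of nearly equal depth, with 19.4 to 19.7 M exonic counts each, and intronic counts formed 15.4 to 18.4% of all counts under the weak and 15.2 to 17.7% under the very weak stimulus. Levels below are in CPM, counts scaled to the size of each library. Mir17hg, the host transcript of miR-17~92, was at 45.0, 47.2, 18.3 and 40.7 CPM in weak replicates 1 to 4 and 49.6, 51.5, 20.5 and 40.7 CPM in very weak replicates 1 to 4, a log2 difference of -0.11 ± 0.06 (SE) that did not pass the test described below (adjusted p = 0.341). Cd4 itself stood at 555 to 604 CPM under the weak and 512 to 589 CPM under the very weak stimulus, and Cd8a at 3.38 to 6.91 CPM and 4.21 to 7.49 CPM. Libraries of the same number deviated together from their group means, with correlations of 0.391 to 0.582 for the 4 pairs, against -0.385 to 0.0822 between libraries of different numbers. Deviations within a group cancel out, so positive values for the pairs by themselves push the rest toward negative values. Xist, a transcript of female cells, followed the number as well, at 263, 334, 696 and 494 CPM in weak replicates 1 to 4 and 262, 321, 647 and 519 CPM in very weak replicates 1 to 4. The Y-linked Ddx3y was at 44.5, 42.8, 6.85 and 33.4 CPM in the weak and 51.2, 47.8, 6.54 and 30.5 CPM in the very weak libraries. Replicate 3 thus had the highest Xist and the lowest Ddx3y in both groups, so the mix of male and female cells differed between numbers. Comparisons were made within pairs, as the comparison is defined by replicate number.

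Promoter sequence is shown for 4 secreted factors among the strongest risers, since those are genes at which NFAT and AP-1 are known to act. Each run holds the 250 bases before the annotated start, 5′ to 3′ on the gene's own strand, from RefSeq on GRCm38.p6, the assembly behind mm10. Capitals mark the NFAT core GGAAA or its reverse complement TTTCC, and in Il1a also the AP-1 motif TGANTCA. All 4 genes lie on the minus strand, Il2 at chr3:37125955-37126204, Il3 at chr11:54267280-54267529, Il1a at chr2:129309973-129310222 and Ccl3 at chr11:83649379-83649628. The annotated span of the Il1a gene reaches base 129310186, so the start used for Il1a lies inside that span and most of its run does too. Its distances count from that start.
Il2: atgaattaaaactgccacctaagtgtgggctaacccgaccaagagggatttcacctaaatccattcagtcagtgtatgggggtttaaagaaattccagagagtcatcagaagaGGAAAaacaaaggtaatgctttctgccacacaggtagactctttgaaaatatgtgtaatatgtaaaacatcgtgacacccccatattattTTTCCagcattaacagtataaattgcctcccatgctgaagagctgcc
Il3: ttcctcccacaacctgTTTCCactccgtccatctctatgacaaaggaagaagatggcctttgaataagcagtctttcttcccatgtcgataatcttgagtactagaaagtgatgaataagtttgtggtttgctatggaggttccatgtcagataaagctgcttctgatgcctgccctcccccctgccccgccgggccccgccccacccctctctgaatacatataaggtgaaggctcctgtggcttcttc
Il1a: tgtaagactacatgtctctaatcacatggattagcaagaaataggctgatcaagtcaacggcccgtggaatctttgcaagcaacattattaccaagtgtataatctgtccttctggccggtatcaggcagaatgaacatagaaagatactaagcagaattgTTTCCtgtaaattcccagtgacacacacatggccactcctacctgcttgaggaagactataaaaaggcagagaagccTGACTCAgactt
Ccl3: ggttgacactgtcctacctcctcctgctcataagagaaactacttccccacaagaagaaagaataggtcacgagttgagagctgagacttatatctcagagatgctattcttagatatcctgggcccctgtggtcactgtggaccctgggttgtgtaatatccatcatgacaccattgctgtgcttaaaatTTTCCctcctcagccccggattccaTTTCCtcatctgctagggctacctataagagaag
The Il2 run holds the NFAT core at 137 to 133 and at 47 to 43 bases before the start. Il3 holds 1 such match at 234 to 230 bases, and Ccl3 holds matches at 59 to 55 and 34 to 30 bases before the start. Il1a holds the core at 89 to 85 bases and the AP-1 motif at 12 to 6 bases before its start. The core is short and common. In windows from 250 bases before to 50 after the start, on both strands, it was found in 64.8% of the promoters of genes that rose, 59.5% of those that fell and 59.2% of all genes tested. The shares were 5.47%, 7.69% and 4.57% for AP-1 and 7.81%, 8.72% and 8.32% for the EGR motif GCGTGGG. RefSeq windows were matched for 128 of 166 risers, 195 of 248 fallers and 9298 of 11652 tested genes. A match is a run of letters, not a measured binding site.

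At 24 h a small share of genes passed the test between the anti-CD3 doses, most of them with small changes. Of 11652 genes tested, 414 (3.55%) passed edgeR's quasi-likelihood test with the replicate number as a block, at a Benjamini-Hochberg adjusted p under 0.05. Of these, 166 (1.42%) rose and 248 (2.13%) fell under the weak stimulus. In the same fit 2129 genes had an unadjusted p under 0.05. The median change was 1.23-fold among the risers and 1.25-fold among the fallers, and 16 risers and 5 fallers reached 2-fold. The secreted factors Il3, Il2, Il1a, Pdgfb and Ccl4 were among the genes that rose by more than 2-fold. Among 33 gene lists, those with most fallers by count were the naive and quiescent state, with 6 of 29 measured genes, and the interferon response, with 4 of 26. Shorter lists had like shares, among them regulatory T cell genes (3 of 14), anergy and TCR restraint genes (2 of 13) and activation surface receptors (3 of 20). The lists with most risers by count were ATF4, amino acid and 1-carbon genes (6 of 27), activation surface receptors (5 of 20) and NF-kB pathway genes (5 of 25). List counts stand beside the 1.42% and 2.13% over all genes tested.

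**Figure D1:**
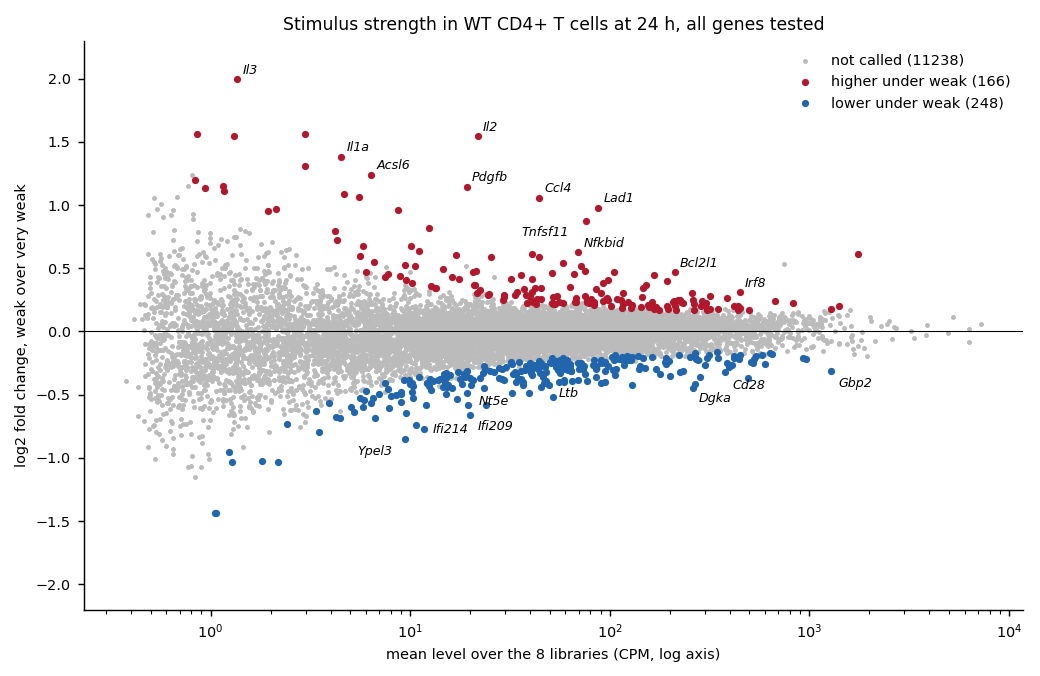
Log2 fold change of the weak over the very weak stimulus (vertical axis) against the mean level over the 8 libraries in CPM (horizontal log axis), 1 point per gene tested. The 166 genes called higher (red) include a few past 2-fold, with Il2 at 1.55 and Ccl4 at 1.06, while most of the 248 called lower (blue) lie between 0 and -1.

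Among the called genes the medians went the same way in each pair, which a call made on these same pairs favours. The median log2 change of the risers was 0.23, 0.39, 0.33 and 0.30 in pairs 1 to 4, and that of the fallers was -0.22, -0.40, -0.27 and -0.37. The sign was the same in all 4 pairs for 161 of the 166 risers and 230 of the 248 fallers, which is what the call favours, and over all genes 13.5% were higher and 10.7% lower in every pair. The groups as such overlapped for nearly all called genes. Only 16 risers had every weak library above every very weak one, and 13 fallers the reverse, against 131 (1.12%) and 86 (0.738%) of all genes tested. Among named genes these were Perp, Asns, Serpine2, Ccr8 and Olfml2a on the rising side and Cxcr4 on the falling side. In edgeR without the replicate block 0 genes passed, with 451 at an unadjusted p under 0.05, and DESeq2 with the block called 293. Without pair 2, 3 or 4 the paired fit called 95, 136 and 245 genes, and without pair 1 it called 884. Of the 86 called genes that the naming rule covers, 43 were called whichever pair was left out and 43 lost the call without at least 1 pair, as stated beside those described. DESeq2 with the block did not call 15 of the 86. These were Il3, Gbp2, Sh2d1a, Cxcr4, Ccr6, Thra, Ypel2, Atp9a, Rasgrp2, Orai2, Ikzf4, Mxd3, Elovl6, Ifit3 and Bcl2a1d. In bulk RNA, a change in the share of cells that responded and a change in RNA per responding cell cannot be told apart.

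**Figure D2:**
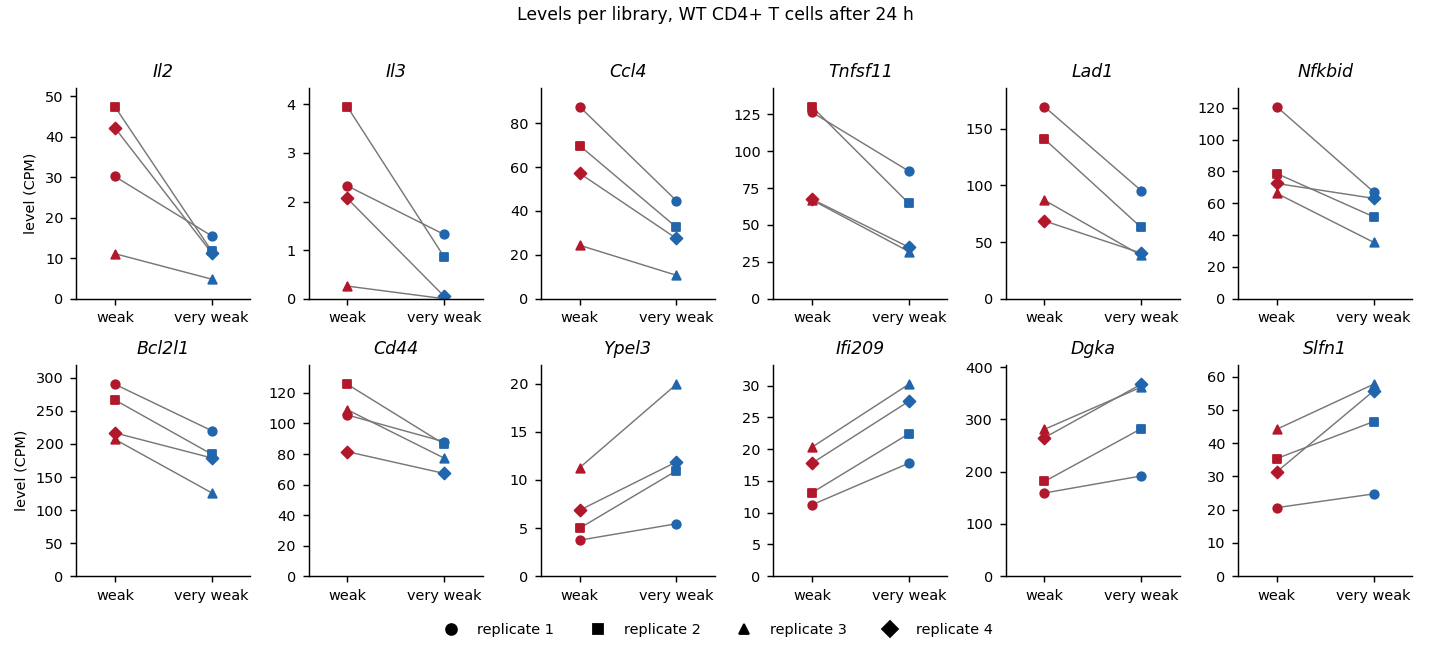
Level in CPM of 12 genes in each library (weak on the left in red, very weak on the right in blue); lines join the libraries of 1 replicate number, marked by symbol. Il2, Il3, Ccl4, Tnfsf11, Lad1, Nfkbid, Bcl2l1 and Cd44 slope down from weak to very weak in all 4 pairs, and Ypel3, Ifi209, Dgka and Slfn1 slope up in all 4.

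The T cell cytokine list had 17 of its 31 genes measured, of which 4 rose and 1 fell, with a median log2 change of 0.15 against -0.0031 over all genes tested. Il2, the growth factor that activated CD4+ T cells secrete, was at 30.2, 47.4, 11.1 and 42.2 CPM in weak replicates 1 to 4, against 15.5, 11.8, 4.83 and 11.3 CPM in very weak replicates 1 to 4. Each weak library was above its partner, although weak replicate 3 lay below 3 of the very weak libraries. The change was 1.55 ± 0.13 on the log2 scale (SE), or 2.92-fold (adjusted p = 1.05e-06). It ranged from 1.37 to 1.78 when any 1 pair was left out.

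Il3, a growth factor of haematopoietic cells that activated T cells release, was at 2.32, 3.95, 0.26 and 2.06 CPM under the weak stimulus and at 1.32, 0.862, 0 and 0.0509 CPM under the very weak one. These levels rest on 165 counts in the 4 weak and 43 in the 4 very weak libraries. Il3 had the largest fitted change of any called gene, 3.99-fold with an SE of 0.39 on the log2 scale (adjusted p = 0.00646), but its call was lost without pair 2 (adjusted p = 0.0861) and in DESeq2 (0.0829). Il1a, an interleukin-1 family alarmin outside that list, was at 8.71, 12.2, 2.23 and 2.32 CPM in the weak and 3.28, 6.24, 0.302 and 0.662 CPM in the very weak libraries. Replicates 1 and 2 were high and replicates 3 and 4 low in both groups, and the change of 1.38 ± 0.19 (adjusted p = 0.000439) stayed called with any pair left out.

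Membrane-bound ligands of the TNF family moved in both directions. Tnfsf11 (RANKL), which acts on osteoclasts and dendritic cells, was at 126, 130, 66.9 and 67.5 CPM under the weak and 86.5, 64.7, 32.0 and 34.9 CPM under the very weak stimulus, a change of 0.87 ± 0.07 (adjusted p = 6.65e-07). Cd40lg, the helper signal to B cells, was at 38.4, 68.9, 21.9 and 59.9 CPM against 28.8, 46.2, 18.1 and 45.5 CPM, a change of 0.42 ± 0.06 (adjusted p = 0.000944). Both were higher in 4 of 4 pairs. Ltb, the membrane anchor of lymphotoxin, fell in all 4 pairs, with 50.4, 59.7, 85.7 and 72.2 CPM under the weak and 60.3, 92.2, 96.7 and 100 CPM under the very weak stimulus (log2 change -0.39 ± 0.07, adjusted p = 0.00213).

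The other 12 measured cytokines did not pass the test. Ifng, the Th1 effector cytokine, was at 9.29, 17.6, 5.87 and 13.4 CPM in the weak libraries and 8.57, 15.5, 4.03 and 5.81 CPM in the very weak ones. It was higher in 4 of 4 pairs, with a log2 difference of 0.47 ± 0.14 and an adjusted p of 0.0723. Tnfsf14 (0.30 ± 0.09), Lta (0.22 ± 0.07), Tnf (0.19 ± 0.12) and Tgfb1 (0.13 ± 0.05) had log2 differences above 0, and Il16 (-0.16 ± 0.05) and Csf1 (-0.39 ± 0.22) below 0. Il21 (0.15 ± 0.28), Lif (0.08 ± 0.07), Tnfsf8 (0.03 ± 0.06), Fasl (-0.03 ± 0.10) and Osm (-0.06 ± 0.13) had differences close to 0 for their SE. A miss at this threshold does not show that a gene's level was equal under both doses.

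Of 10 chemokine genes measured, Ccl4 and Ccl3 rose and none fell (median log2 0.04). These chemokines draw other leukocytes to activated cells. Ccl4 was at 87.5, 69.7, 24.4 and 57.1 CPM in the weak libraries, against 44.6, 32.5, 10.7 and 27.5 CPM in the very weak libraries. The ratio was nearly the same in each pair although replicate 3 was low in both groups, and the change of 1.06 ± 0.06 had the smallest adjusted p of all genes, 8.71e-09. Ccl3 was at 15.6, 25.3, 6.02 and 16.4 CPM under the weak and 11.8, 14.8, 2.82 and 6.98 CPM under the very weak stimulus (0.82 ± 0.12, adjusted p = 0.000493).

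Several of the largest rises fell outside the lists. Pdgfb, a chain of platelet-derived growth factor, was at 38.0, 31.0, 14.5 and 22.2 CPM against 19.3, 12.2, 6.04 and 10.5 CPM, a change of 1.15 ± 0.08 (adjusted p = 1.77e-07). Lad1, which encodes ladinin, a protein of anchoring filaments, was at 169, 141, 87.0 and 68.7 CPM against 95.4, 62.9, 38.2 and 40.2 CPM (0.98 ± 0.07, adjusted p = 7.28e-08). Both rose in each of the 4 pairs, with replicates 1 and 2 above 3 and 4 under the weak stimulus. Perp, a membrane protein of cell junctions, was 1 of the 16 risers with no overlap between groups, at 5.62 to 7.74 CPM under the weak and 2.23 to 4.13 CPM under the very weak stimulus (1.09 ± 0.17). Sema4c, a membrane semaphorin, changed by 0.96 ± 0.11. Rhbdf1 (0.80 ± 0.16), Sytl3 (0.72 ± 0.14), the protease inhibitor Serpine2 (0.68 ± 0.13) and the proteoglycan Sdc1 (0.67 ± 0.13) complete the 15 largest under the naming rule. Each of them lost its call without pair 2. Sytl3 and Sdc1 also lost it without pair 3.

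Surface receptors of activated T cells divided. Of 20 measured, 5 rose and 3 fell (median log2 0.03). Cd44, an adhesion receptor that marks antigen experience, was at 106, 126, 109 and 81.5 CPM in the weak libraries and 88.0, 86.4, 77.3 and 67.3 CPM in the very weak libraries (0.39 ± 0.06, adjusted p = 0.000623). Tnfrsf4 (OX40), a costimulatory receptor induced by activation, was at 388, 380, 279 and 356 CPM against 329, 297, 233 and 287 CPM (0.28 ± 0.04, adjusted p = 0.00113). The other risers, named to complete the count, were Cd226 (0.34), Cd200 (0.26) and Cd82 (0.22), each of which lost its call without pair 2 (adjusted p of 0.150, 0.0529 and 0.138).

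Cd28, the receptor that anti-CD28 engages, fell under the weak stimulus. It was at 276, 359, 329 and 394 CPM in weak replicates and 363, 469, 390 and 461 CPM in very weak replicates, lower in 4 of 4 pairs (log2 change -0.32 ± 0.05, adjusted p = 0.000529). Cd27, a costimulatory receptor of resting and memory cells, was at 60.6, 79.0, 98.9 and 87.9 CPM against 81.7, 102, 125 and 119 CPM (-0.40 ± 0.05, adjusted p = 0.000155). Both calls held with any pair left out, and Slamf1 (-0.22), the remaining faller, lost its call without pair 2 (adjusted p = 0.246) and without pair 3 (0.0715). Among 10 inhibitory receptors and ectoenzymes, Nt5e (CD73), which makes adenosine, was the only faller and none rose. Nt5e was at 11.1, 10.2, 27.4 and 12.8 CPM under the weak and 13.8, 16.1, 48.3 and 16.6 CPM under the very weak stimulus, with replicate 3 far above the rest in both groups. Its change of -0.58 ± 0.09 had an adjusted p of 0.00118, and of 0.0604 without pair 3. Pdcd1 (0.12), Ctla4 (-0.15) and Lag3 (-0.07) had log2 differences that did not pass.

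Genes of the receptor complex and its proximal kinases had a median log2 change of -0.09 over 25 measured, with 3 fallers and no riser. Cd3g was at 171, 178, 251 and 241 CPM in the weak and 230, 225, 319 and 259 CPM in the very weak libraries (-0.31 ± 0.05, adjusted p = 0.00181). Cd3d, a partner chain, changed by -0.22 ± 0.05. The call of Cd3d was lost without pair 2 or pair 3 (adjusted p up to 0.246). Dgka, the diacylglycerol kinase that damps RAS signalling and is linked to anergy, was at 159, 181, 281 and 265 CPM under the weak and 192, 282, 362 and 367 CPM under the very weak stimulus. Every weak library was below its partner, and the change was -0.45 ± 0.06 (adjusted p = 0.000155). Dgka and Ikzf4 (-0.41 ± 0.10) were the 2 fallers of 13 anergy and restraint genes, none of which rose. Ikzf4 lost its call without pair 2 or pair 4 (adjusted p up to 0.295). None of 14 ERK feedback genes was called (median -0.05), among them Dusp5 (0.15), Dusp6 (-0.08) and Spry1 (-0.22). In so short a list that is near the share called over all genes tested, 3.55%.

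Among 25 NF-kB pathway genes, 5 rose and none fell (median 0.02). Nfkbid, an atypical IkB protein that works in the nucleus with NF-kB, was at 121, 78.6, 66.2 and 72.4 CPM against 67.2, 51.5, 35.5 and 63.1 CPM, higher in 4 of 4 pairs (0.63 ± 0.08, adjusted p = 0.000300). The subunit genes Rel (0.27 ± 0.05), Nfkb2 (0.24 ± 0.05) and Nfkb1 (0.23 ± 0.05) rose by less, and Cd83 (0.29), a target of the pathway, completes the 5. All but Nfkbid lost the call without pair 2 and without pair 3, with adjusted p up to 0.134 for Nfkb2, 0.123 for Rel, 0.185 for Nfkb1 and 0.290 for Cd83. Of 17 calcineurin and NFAT genes, Nfat5, a tonicity-responsive relative of the NFAT factors, rose (0.24 ± 0.05, adjusted p = 0.00696, and 0.101 without pair 3). Orai2, a subunit of store-operated calcium channels, fell (-0.37 ± 0.10, adjusted p = 0.0410, and up to 0.347 with a pair left out). Over all genes tested 1.42% rose and 2.13% fell.

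Most immediate early and activation transcription factors did not pass: 3 of 31 rose and none fell (median 0.05). Id3, an inhibitor of E proteins, was at 114, 70.8, 48.2 and 74.3 CPM in the weak and 73.9, 49.3, 36.5 and 60.5 CPM in the very weak libraries (0.46 ± 0.06, adjusted p = 0.000300). Bhlhe40, a repressor needed for cytokine production in helper cells, was at 210, 253, 84.9 and 148 CPM against 156, 185, 72.9 and 113 CPM (0.36 ± 0.05). Irf8 was at 545, 530, 474 and 438 CPM against 485, 373, 364 and 373 CPM (0.31 ± 0.05). All 3 were higher in 4 of 4 pairs and were called with any pair left out. Egr1 (0.07), Egr2 (0.04), Nr4a1 (-0.04), Irf4 (0.01) and Myc (0.05), early or dose-graded genes of TCR signalling, had differences near 0 that did not pass at 24 h. Larger differences that did not pass were those of Fos (0.52 ± 0.19, adjusted p = 0.146), Fosb (0.43 ± 0.23, adjusted p = 0.340) and Batf3 (0.72 ± 0.35, adjusted p = 0.285), each higher in 3 of 4 pairs. Fos was at 36.1, 38.8, 2.80 and 15.7 CPM in weak replicates 1 to 4 and 17.9, 25.6, 7.15 and 8.86 CPM in very weak replicates 1 to 4, so its pair 3 went the other way.

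Survival genes changed in opposite directions. Of 19 genes of the BCL2 family and apoptosis, 2 rose and 2 fell. Bcl2l1 (BCL-xL), which CD28 and IL-2 signals are known to induce, was at 290, 266, 207 and 217 CPM under the weak and 220, 185, 126 and 179 CPM under the very weak stimulus (0.47 ± 0.06, adjusted p = 0.000145). Bcl2, the main survival gene of resting T cells, was at 51.5, 67.0, 84.3 and 64.2 CPM against 64.6, 88.5, 92.7 and 86.9 CPM (-0.33 ± 0.06, adjusted p = 0.00267). Bcl2l1 was higher and Bcl2 lower in all 4 pairs. Bcl2a1d rose (0.22 ± 0.06) and the pro-apoptotic Bcl2l11 (BIM) fell (-0.23 ± 0.06), and both were called only with all pairs or without pair 1. Bcl2a1d has near-identical copies, among which reads can be split. Of the 19 IL-2 and STAT5 response genes, Bcl2l1 and Bcl2 were the 2 called ones, and the feedback genes Cish (-0.07) and Socs2 (-0.14) did not pass.

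**Figure D3:**
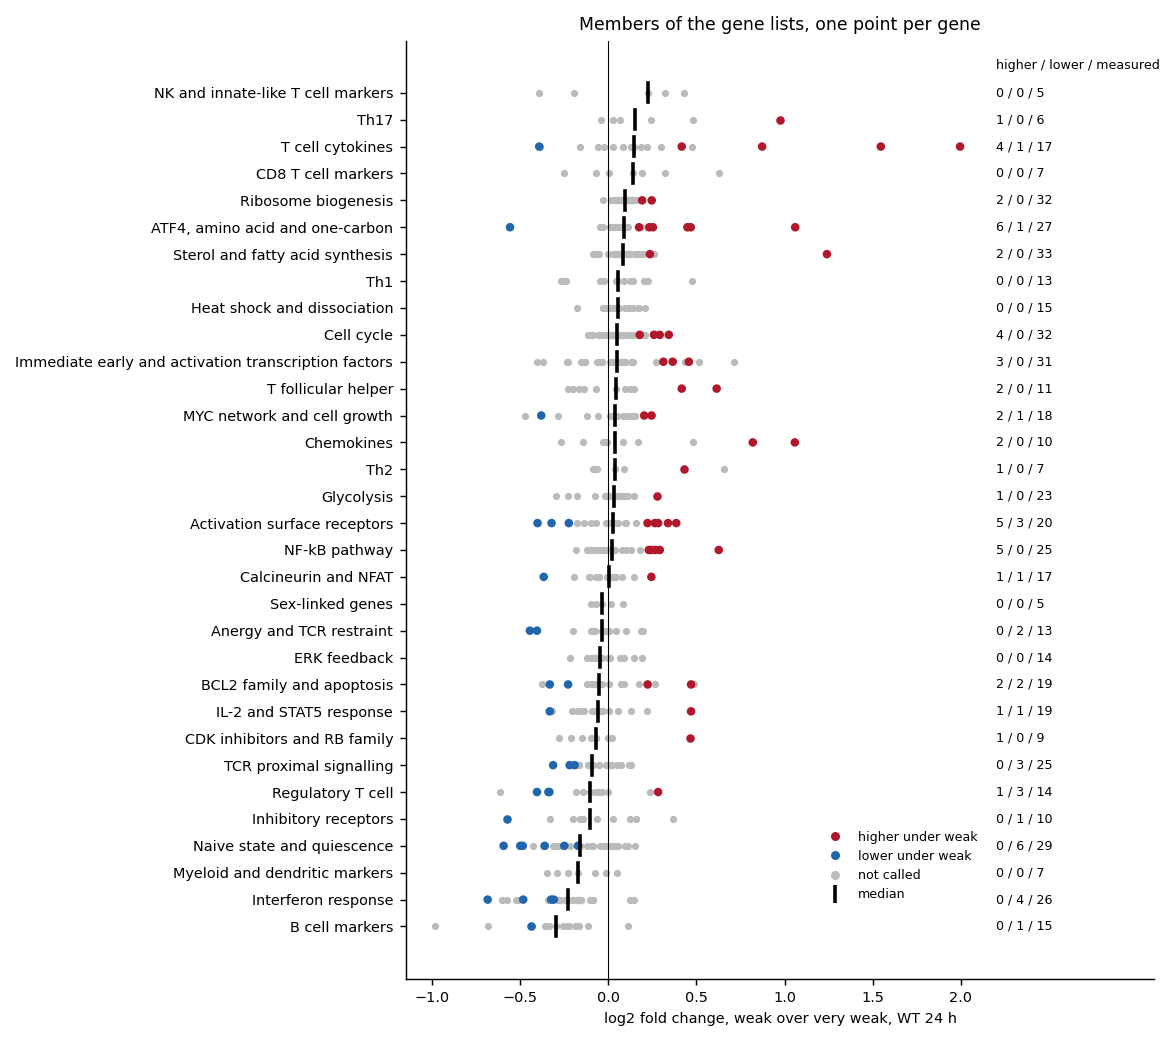
Log2 fold change, weak over very weak, of every measured member of the gene lists with at least 5 measured genes (points; red called higher, blue called lower, grey not called; black bar, median of the list), with the counts of called and measured members at the right. Medians run from -0.30 for B cell markers and -0.23 for the interferon response to 0.23 for NK and innate-like T cell markers, and grey points make up most of each row.

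Of 27 genes of the ATF4 response, amino acid and 1-carbon metabolism, 6 rose and 1 fell (median 0.09). Cth, which makes cysteine from cystathionine, was at 10.5, 9.56, 3.53 and 6.08 CPM in the weak and 6.45, 4.41, 1.56 and 2.14 CPM in the very weak libraries (1.06 ± 0.15, adjusted p = 0.000374). The stress-induced sestrin Sesn2 was at 39.7, 30.2, 42.0 and 54.1 CPM against 28.8, 19.5, 33.5 and 40.0 CPM (0.45 ± 0.07, adjusted p = 0.000569). Asns, the asparagine synthetase, had no overlap between groups, at 21.9 to 26.7 CPM under the weak and 15.5 to 20.5 CPM under the very weak stimulus (0.47 ± 0.08, adjusted p = 0.00317, and 0.0583 without pair 2). Bcat1 rose by 0.25 ± 0.04, and Mthfd2 (0.23) and Psat1 (0.17) complete the count, with adjusted p up to 0.147 and 0.393 when a pair was left out. Ddit3 (CHOP), a stress-induced transcription factor of the same list, was the faller (-0.56 ± 0.13, adjusted p = 0.0193, and 0.135 at most with a pair left out).

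Acsl6, which activates long-chain fatty acids, was at 10.3, 13.2, 4.47 and 7.37 CPM under the weak and 7.99, 4.06, 1.66 and 1.94 CPM under the very weak stimulus. It rose by 1.24 ± 0.19 (adjusted p = 0.00104) and was, with Elovl6 (0.24 ± 0.06), 1 of 2 risers among 33 sterol and fatty acid genes, none of which fell (median 0.09). In the ribosome biogenesis list 31 of 32 genes had a fitted change above 0 (median 0.10), but only Polr1c (0.25 ± 0.05) and Rrp9 (0.19 ± 0.05) passed. Hk2, the inducible hexokinase, was at 173, 215, 106 and 145 CPM against 152, 167, 80.9 and 125 CPM (0.28 ± 0.05), the only riser of 23 glycolysis genes (median 0.03). Odc1 (0.24 ± 0.05) and Srm (0.20 ± 0.04), enzymes of polyamine synthesis, rose and the MYC-family antagonist Mxd3 (-0.38 ± 0.10) fell among 18 MYC network genes. Elovl6, Polr1c, Rrp9, Hk2, Srm and Mxd3 lost the call without pair 2 or pair 3, with adjusted p up to 0.310, 0.0632, 0.324, 0.0609, 0.207 and 0.289, and Odc1 without pair 2 (0.171).

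Of 32 cell cycle genes 4 rose and none fell (median 0.05), by at most 0.34 on the log2 scale. They were Ccnb1 (0.34 ± 0.08) and Aurka (0.26 ± 0.06) of mitosis, the G1 kinase Cdk6 (0.29 ± 0.07) and Rrm2 (0.18 ± 0.05), a ribonucleotide reductase subunit. None of the 4 calls held without pair 2 or pair 3, with adjusted p of up to 0.215, 0.160, 0.191 and 0.374. Replication genes such as Mcm5 (0.01) and Pcna (-0.05) and the proliferation marker Mki67 (0.06) did not pass. Cdkn1a (p21), a CDK inhibitor that p53 and mitogens induce, was at 44.4, 42.1, 44.4 and 111 CPM in the weak libraries and 33.9, 29.7, 35.1 and 71.7 CPM in the very weak ones. Replicate 4 stood far above the others in both groups, and the change was 0.47 ± 0.06 (adjusted p = 0.000300), or 0.40 to 0.51 with a pair left out. The other 8 measured CDK inhibitor and RB family genes did not pass.

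Genes of the naive and quiescent state had a median log2 change of -0.16 over 29 measured, with 6 fallers and no riser. Slfn1, linked to T cell quiescence in mice, was at 20.6, 35.4, 44.2 and 31.4 CPM in weak libraries, against 24.8, 46.5, 57.7 and 55.7 CPM in very weak libraries (-0.49 ± 0.08, adjusted p = 0.00118). It was lower in 4 of 4 pairs, with replicate 1 the lowest in each group. Cxcr4, the receptor of CXCL12, was at 3.15 to 4.75 CPM under the weak and 4.84 to 8.16 CPM under the very weak stimulus, without overlap (-0.60 ± 0.14, adjusted p = 0.0223). Cxcr4 and Rasgrp2 (-0.50 ± 0.11), an activator of RAP1, were called only with all pairs or without pair 1, as was Ccr7 (-0.17). Igfbp4 (-0.25) lost its call without pair 2 or pair 4 (adjusted p of 0.246 and 0.138). Il7r (-0.37), S1pr1 (-0.43) and Klf2 (-0.30) had log2 differences below 0 that did not pass.

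Among genes that the naming rule covers, the largest falls included Ypel3, a growth-suppressing gene of the Yippee family. The 5 fallers that reached 2-fold, at most 2.70-fold, lie outside that rule and are not described. Ypel3 was at 3.75, 4.99, 11.3 and 6.86 CPM under the weak and 5.45, 11, 19.9 and 11.9 CPM under the very weak stimulus (-0.85 ± 0.11, adjusted p = 0.000282). Calcoco1, an autophagy receptor and nuclear coactivator, was at 4.75, 6.81, 12.7 and 7.99 CPM against 7.72, 12.1, 17.7 and 15.6 CPM (-0.74 ± 0.10, adjusted p = 0.000439). In both, replicate 3 was highest in each group and every weak library was below its partner. Neat1, the RNA scaffold of paraspeckles, was at 13.9, 20.5, 21.3 and 20.5 CPM against 14.2, 36.8, 29.0 and 36.2 CPM, so its pair 1 hardly differed (-0.58 ± 0.10, adjusted p = 0.00291, and 0.0502 without pair 2). Abtb1 (-0.65 ± 0.11) and the steroid dehydrogenase Akr1c18 (-0.53 ± 0.08) were called with any pair left out. Ypel2 (-0.68 ± 0.14), the peptide transporter Slc15a2 (-0.60 ± 0.13), Bdh2 (-0.58 ± 0.11), the flippase Atp9a (-0.57 ± 0.12) and the thyroid hormone receptor Thra (-0.54 ± 0.13) fell too, but lost the call without pair 2 and without pair 3.

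The interferon response list had a median of -0.23 over 26 measured genes, 24 of which had a fitted change below 0, and 4 fell and none rose. Gbp2, a guanylate-binding protein, was at 723, 1069, 1548 and 1326 CPM in the weak and 1096, 1240, 1705 and 1580 CPM in the very weak libraries (-0.31 ± 0.06, adjusted p = 0.00445, and 0.0657 in DESeq2). Gbp3 changed by -0.33 ± 0.06, and Ifi27l2a was at 22.2, 22.2, 33.8 and 30.8 CPM against 33.1, 33.4, 43.3 and 40.4 CPM (-0.48 ± 0.07, adjusted p = 0.000374). Ifit3 (-0.69 ± 0.18, adjusted p = 0.0389) lost its call without pair 2, 3 or 4 (up to 0.294). The DNA sensor relatives Ifi209 and Ifi214 were among the largest falls under the naming rule. Ifi209 was at 11.2, 13.1, 20.3 and 17.8 CPM against 17.8, 22.4, 30.2 and 27.5 CPM (-0.66 ± 0.08, adjusted p = 7.48e-05), and Ifi214 was at 5.80, 5.25, 12.6 and 11.3 CPM against 8.78, 13.5, 19.9 and 16.5 CPM (-0.78 ± 0.12). Both belong to a cluster of similar genes, among which reads can be split.

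Of 15 measured B cell markers, 1 fell and none rose. The median was -0.30 in the fit and -0.07, -0.44, -0.11 and -0.38 in pairs 1 to 4, and H2-Aa, an MHC class II chain of antigen-presenting cells, was that faller (-0.44 ± 0.09, adjusted p = 0.00803, and 0.0643 without pair 4). The summed level of the 15 was 97.3 to 181 CPM under the weak and 99.3 to 225 CPM under the very weak stimulus. The 6 defining genes, none of which was at 0, summed to 17.8, 25.6, 37.5 and 42.2 CPM in weak replicates 1 to 4 and 20.0, 35.6, 38.4 and 52.1 CPM in very weak replicates 1 to 4. Their part in the falls of interferon-inducible and naive-state genes was not tested. Markers of CD8 T cells summed to 9.45 to 17.2 CPM under the weak and 11.5 to 16.7 CPM under the very weak stimulus. Those of the other lineages were lower: markers of NK cells summed to at most 1.91 CPM under the weak and 0.866 CPM under the very weak stimulus, of myeloid cells to 2.18 and 4.36 CPM, of dendritic cells to 0.779 and 0.662 CPM, and of erythroid cells to 3.12 and 3.45 CPM. The platelet genes Pf4 and Ppbp had 0 counts in all weak libraries and 2 and 4 counts in the very weak ones. No member of the CD8 (7 measured), NK and innate-like (5), myeloid and dendritic (7), erythroid and platelet (2), sex-linked (5) or heat shock and dissociation (15) lists was called. In lists this short that is near the 3.55% called over all genes tested.

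Of the helper lineage lists, none of 13 Th1 genes was called (median 0.06), which is near the 3.55% called over all genes tested. Among 7 Th2 genes the chemokine receptor Ccr8 rose without overlap, at 17.7 to 20.7 CPM under the weak and 10.8 to 17.6 CPM under the very weak stimulus (0.43 ± 0.10, adjusted p = 0.0179, and 0.156 at most with a pair left out). Ccr6, a receptor of Th17 cells, rose by 0.97 ± 0.22 as the 1 called gene of 6 (adjusted p = 0.0151, and 0.205 at most with a pair left out). Its mean level was low, at 2.83 CPM under the weak and 1.45 CPM under the very weak stimulus. Among 11 T follicular helper genes, Cd40lg and Sh2d1a (SAP), the adaptor of SLAM receptors, rose. Sh2d1a was at 47.2, 63.7, 40.9 and 45.6 CPM against 45.9, 34.3, 24.4 and 25.4 CPM (0.61 ± 0.10, adjusted p = 0.00140, and 0.0516 in DESeq2), with pair 1 nearly level. Of 14 regulatory T cell genes, Tnfrsf4 rose and Izumo1r (folate receptor 4; -0.34 ± 0.05), Capg (-0.34 ± 0.06; adjusted p of 0.0550 without pair 3) and Ikzf4 fell. Izumo1r was at 140, 129, 184 and 186 CPM in the weak and 171, 183, 226 and 216 CPM in the very weak libraries, lower in 4 of 4 pairs.

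The same contrast was read in 4 further ways, which the choice of the 414 genes did not use. In KO cells at 24 h 10.8% of genes were called (4.04% higher, 6.74% lower), in TG cells at 24 h 4.53% (1.98% higher, 2.55% lower), in WT cells at 48 h 6.09% (3.98% higher, 2.11% lower), and in the intronic counts of the 8 WT libraries themselves 1.84% (1.21% higher, 0.625% lower). The first 3 share no library with the WT 24 h comparison, while the intronic reads come from its own RNA. Of the 166 risers, 159 of 164 measured in KO cells, 163 of 166 in TG cells, 148 of 166 at 48 h and 121 of 141 in introns had the same sign. For the 248 fallers these counts were 233 of 247, 234 of 248, 206 of 248 and 205 of 233. Over all tested genes, 47.9% in introns, 48.8% in TG cells, 49.4% at 48 h and 49.9% in KO cells were above 0.

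**Figure D4:**
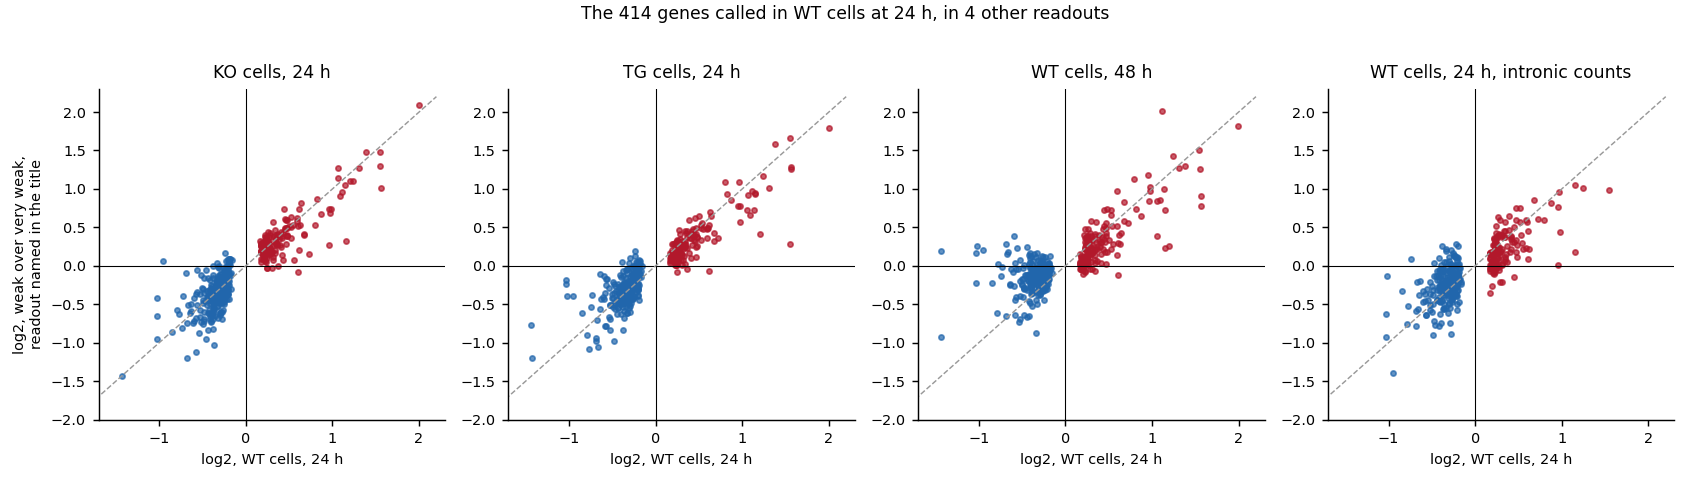
Log2 fold change, weak over very weak, of the 414 genes called in WT cells at 24 h (horizontal axis; red higher, blue lower) against their log2 fold change in KO cells at 24 h, TG cells at 24 h, WT cells at 48 h and the intronic counts of the WT 24 h libraries (vertical axis). Most points lie in the upper right or lower left field of each panel, with 206 of 248 fallers below 0 at 48 h and 234 of 248 in TG cells; the dashed line marks equal change.

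Many were also called there. In KO cells 98 of the risers and 157 of the fallers passed in the same direction, in TG cells 72 and 103, at 48 h 82 and 64, and in introns 16 and 26. As a share of what was called in each readout, the shared risers were 20.8% of the KO, 31.0% of the TG, 17.2% of the 48 h and 12.9% of the intronic risers, and the shared fallers 19.9%, 34.6%, 25.4% and 40.6%. No gene of the 414 was called in the opposite direction in any of the 4. The 4 exonic comparisons (WT, KO and TG cells at 24 h and WT cells at 48 h) together called 38 of the risers and 24 of the fallers in 1 direction. They include Il2, Il3, Il1a, Ccl3, Ccl4, Tnfsf11, Cd40lg, Nfkbid, Nfkb2, Irf8, Bcl2l1, Cdkn1a and Cth among the risers and Dgka, Cd27, Nt5e, Izumo1r, Akr1c18, H2-Aa and Bcl2l11 among the fallers.

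Il2 rose in every readout. Its log2 change was 1.30 ± 0.10 in KO cells, 1.66 ± 0.15 in TG cells and 1.51 ± 0.09 in WT cells at 48 h, beside 1.55 ± 0.13 in WT cells at 24 h. Its level at 48 h was 148 ± 81.3 CPM under the weak and 56.8 ± 46.4 CPM under the very weak stimulus (SD, n = 4 each). The intronic counts of Il2, which report unspliced RNA, averaged 85.7 ± 45.2 CPM of the intronic library under the weak and 41.4 ± 17.6 CPM under the very weak stimulus at 24 h, a change of 0.99 ± 0.12 (adjusted p = 7.48e-05). Intronic change also passed for Tnfsf11 (0.81 ± 0.10), Acsl6 (1.02 ± 0.21), Cd44 (0.64 ± 0.11), Bcl2l1 (0.60 ± 0.11), Cdk6 (0.60 ± 0.11) and Nfat5 (0.51 ± 0.09) upward and for Dgka (-0.45 ± 0.10) and Cd27 (-0.63 ± 0.15) downward. Ccl3, Ccl4 and Il3 had too few intronic counts to be tested.

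The size of the dose effect in WT cells at 24 h was also tested against that in KO and in TG cells. No gene passed in either test of the difference in edgeR, with 949 of 11960 genes at an unadjusted p under 0.05 against KO and 932 of 11994 against TG, and DESeq2 called 0 in both. For Il2 the WT minus KO difference was 0.24 ± 0.19 on the log2 scale and the WT minus TG difference -0.12 ± 0.26. The lack of calls does not show that the dose acted alike in the 3 genotypes.

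Between 24 h and 48 h the dose effect in WT cells differed for 27 of 12225 genes (0.221%), with 7 higher (0.0573%) and 20 lower (0.164%) effects at 24 h. Ccl4 had the smallest p. It rose by 1.06 ± 0.06 at 24 h and by 0.39 ± 0.07 at 48 h, when its level was 98.1 ± 25.0 CPM under the weak and 74.4 ± 15.5 CPM under the very weak stimulus (difference 0.68 ± 0.10, adjusted p = 0.00794). Ifi209 fell at 24 h, whereas at 48 h its log2 difference was 0.18 ± 0.09 (adjusted p = 0.284), and the effects differed by -0.83 ± 0.13. Mapre2, a microtubule end-binding protein, rose by 0.34 ± 0.05 at 24 h and had a difference of -0.07 ± 0.05 at 48 h. Tacc2, a centrosome-linked protein, was near level at 24 h (0.09 ± 0.06) and fell at 48 h (-0.41 ± 0.06).

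**Figure D5:**
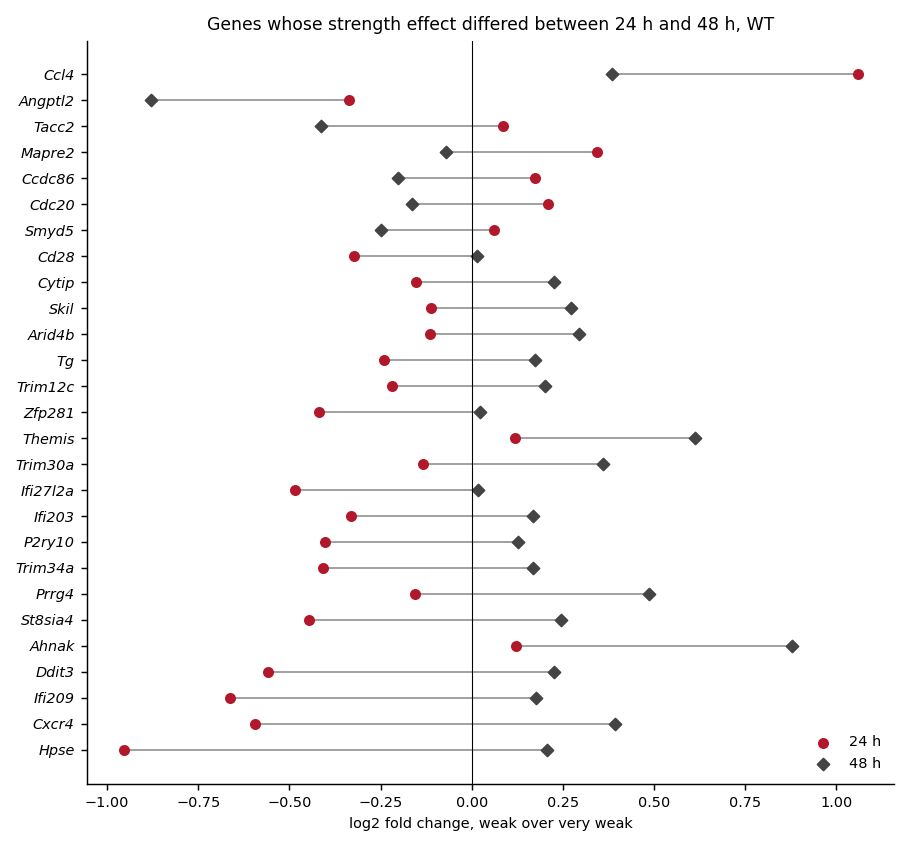
Log2 fold change of the weak over the very weak stimulus in WT cells at 24 h (red circles) and at 48 h (grey diamonds) for the 27 genes whose dose effect differed between the times, ordered by the 24 h minus 48 h difference. Ccl4, at the top, was at 1.06 and 0.39, and for Ifi209, Cxcr4 and Ddit3, near the bottom, the 24 h points lie left of 0 and the 48 h points right of it.

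Receptors and stress genes were among the 27 as well. Cd28 changed by -0.32 at 24 h and by 0.01 at 48 h, Cxcr4 by -0.60 and 0.39, Ddit3 by -0.56 and 0.23 and Ifi27l2a by -0.48 and 0.02. None of these 48 h values passed the test at 48 h. Angptl2 fell at both times, with log2 changes of -0.34 ± 0.08 at 24 h, a call lost without pair 2, 3 or 4 (adjusted p up to 0.275), and -0.88 ± 0.07 at 48 h. Angptl2, Il2, Serpine2 (0.83 ± 0.07) and Serpinb6b (0.98 ± 0.08) had the smallest p at 48 h, and Serpinb6b, an intracellular serine protease inhibitor, rose by 0.59 ± 0.09 at 24 h. The interferon list had a median of -0.23 at 24 h with 4 fallers and no riser, and a median of 0.21 at 48 h with 7 risers and 2 fallers. The difference between these medians was not tested as such. In the test between times 14 genes passed without pair 1, 0 without pair 2 (972 at an unadjusted p under 0.05), 1 without pair 3 and 2 without pair 4, and DESeq2 called 66.

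The direction of change between naive and stimulated cells was read in libraries outside the 24 h contrast. Of the 166 genes that rose with dose at 24 h, 149 (89.8%) had a higher mean in WT cells after 48 h of the very weak stimulus than in naive WT cells. Of the 248 that fell, 55 (22.2%) did, against 52.8% of all 11652 genes tested. Markers of other cell types also differ between naive and stimulated libraries: the very weak libraries at 24 h and the naive libraries had mean sums of 36.6 and 269 CPM for B cells, 2.24 and 158 CPM for myeloid cells, 1.45 and 100.2 CPM for erythroid cells and 14.2 and 45.1 CPM for CD8 T cells. Their part in these counts was not tested.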

How the data were processed

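RNA-seq was analysed in 8 WT libraries at 24 h, 4 under each stimulus, with KO, TG and 48 h libraries for comparison. The deposited tables hold whole-number counts per gene, made by the authors and not normalized, in a full and an intronic version. The tools named in the submitters' processing notes are STAR 2.5.2a and FastQC 0.11.5, with edgeR 3.24.3 under R 3.5 and the build mm10. Which counter, gene models and strand option were applied is not given in the sources used here. Reads of overlapping or antisense genes may therefore be mixed. Of 24028 gene IDs, 23968 had a RefSeq symbol and 7 a GENCODE symbol.

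Counts were tested with edgeR 4.0.16 (R 4.3.3), quasi-likelihood F test, TMM factors (0.982 to 1.01), filterByExpr, with the replicate number as a block (3 residual degrees of freedom) and Benjamini-Hochberg adjustment over all genes tested. The test is paired because the comparison is defined by replicate number, and same-numbered libraries deviated together in all 4 pairs. The labels do not say what a number marks. Levels are CPM with TMM factors of all 58 libraries, log2 fold changes are weak over very weak with the SE from the F statistic, and a called gene has an adjusted p under 0.05. The fit estimates spread with information shared across genes. An SE can therefore be smaller or larger than the gene's own pair differences alone would give. Differences of effects were interaction terms in 16 libraries. Fits were tested on simulated data. No molecular identifiers are named in the labels, so counts are taken as counts of reads and not of distinct RNA molecules.

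The comparison and the 33 gene lists were chosen with earlier results of these data known. The text names the 15 largest rises and falls (mean of at least 5 CPM in either group, the same sign in 4 pairs, no unnamed models, pseudogenes or receptor segments), every measured cytokine of at least 1 CPM, up to 4 called members of each other list by adjusted p, up to 4 genes each of the 48 h and between-time tests, and check genes. Genes named to complete a count, as list members that were not called, or by their level were added after their values were seen. A few genes under this rule are not reported here. Lists are described by counts and medians, without a test. Alternatives were DESeq2 1.42.0, RLE size factors, no filter, no block, other sets of libraries, a stricter threshold and leaving out each pair.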

Additional observations from a re-analysis of the deposited data

Results flagged for a closer look

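Single libraries stood apart from the other 3 of their group for 14 of the 206 groups of 4 tested (103 named genes in 2 groups) by Dixon's ratio of the gap to the range, at the 95% critical value. Chance alone marks about 1 in 20 groups. Replicate 4 was high for Cdkn1a in both groups, at 111 CPM in the weak group, where the others were at 42.1 to 44.4 CPM, and at 71.7 CPM in the very weak group, where they were at 29.7 to 35.1 CPM. Replicate 3 was high for Nt5e in both groups, at 27.4 CPM (weak) and 48.3 CPM (very weak). Weak replicate 3 was also the highest for Gbp3 (64.8 CPM) and Capg (129 CPM). Weak replicate 2 was the highest for Lta (93.1 CPM), and weak replicate 1 the lowest for Neat1 (13.9 CPM). In the very weak group, replicate 1 was the highest for Irf8 (485 CPM), Rrp9 (175 CPM) and Bcat1 (289 CPM). Very weak replicate 3 was the lowest for Nfkb2 (207 CPM) and Rrm2 (263 CPM), and very weak replicate 2 the lowest for Serpine2 (5.37 CPM).

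The dose effect differed between 24 h and 48 h, by the interaction test, for 9 named genes. On the log2 scale, 24 h minus 48 h, the difference was 0.68 for Ccl4, 0.51 for Tacc2, 0.42 for Mapre2 and 0.55 for Angptl2, which fell less at 24 h. It was -0.83 for Ifi209, -0.98 for Cxcr4, -0.78 for Ddit3, -0.33 for Cd28 and -0.49 for Ifi27l2a.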

How the results depend on the processing

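The 414 calls of the WT 24 h comparison (166 higher, 248 lower) became 807 (299 and 508) without a filter on low counts, 293 with DESeq2 (157 lower) and 149 (68 and 81) at an adjusted p under 0.01. Without the replicate block 0 genes were called, in either direction, in the 8 libraries (451 at an unadjusted p under 0.05) and likewise in a fit of all 58 libraries without the block (280), where libraries of a number are not paired. With 1 pair left out the count ran from 95 to 884, with 45 to 363 higher and 50 to 521 lower. RLE size factors gave 420, the 16 stimulated WT libraries with the replicate block 424, and exonic plus intronic counts 366. The direction of all 414 was kept wherever they had a value in 10 of 11 alternatives, and of 412 with intronic counts added. These fits reuse libraries from which the 414 were called, so kept direction was largely given in advance.

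Without the block the other comparisons also gave 0 calls: intronic counts (188 with it), WT 48 h (728), KO (1260), TG (530) and 24 h minus 48 h (27). Without the filter there were 358 intronic, 1193 WT 48 h, 963 TG, 205 between-time, 29 WT minus KO and 28 WT minus TG calls. DESeq2 gave 78 intronic, 463 WT 48 h and 66 between-time calls. Leaving out a pair gave 42 to 325 intronic, 249 to 400 WT 48 h, 402 to 1724 KO, 202 to 597 TG, 0 to 14 between-time and 0 to 3 WT minus KO calls. The cause was not tested. No list's median moved past the spread of its pairs without the block. That check could hardly fail, since with complete pairs the block changes the error far more than the fitted change. The median log2 over all genes tested was -0.0031 with the block and -0.0033 without it. Of the 86 called genes under the naming rule, 47 stayed called without pair 2, 52 without pair 3, 66 without pair 4, 86 without pair 1 and 71 with DESeq2. Uncalled cytokines near 0 changed sign with a pair left out: log2 differences ran from -0.0015 (without pair 2) to 0.147 for Lif, from -0.182 to 0.0681 (without pair 1) for Osm, from -0.0203 (without pair 4) to 0.0558 for Tnfsf8 and from -0.0738 to 0.0397 (without pair 3) for Fasl. Depth limits genes such as Il3, with 165 counts over the 4 weak and 43 over the 4 very weak libraries.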

Other observations

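Lars2, the mitochondrial leucyl-tRNA synthetase, was singled out after its values were seen, as the called gene of highest mean level. It was at 4670, 1306, 1888 and 1193 CPM in weak replicates 1 to 4 and 1501, 1229, 1246 and 1052 CPM in very weak replicates 1 to 4. Weak replicate 1, far above the rest, was also the library with the highest intronic share, 18.4%. The log2 change was 0.61 ± 0.15 (adjusted p = 0.0325), 0.28 without pair 1 (0.0143) and 0.62 without pair 3 (0.186). Its log2 differences were 0.21 in KO cells, -0.07 in TG cells and -0.12 at 48 h, none of which passed.

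Among genes of low level that were at least 2-fold higher under the weak stimulus and fall outside the naming rule, Ccn1, a matricellular protein, was at 7.65, 7.64, 0.779 and 1.91 CPM in the weak and 2.17, 2.03, 0.654 and 0.815 CPM in the very weak libraries (1.57 ± 0.22, adjusted p = 0.000493). Stra6, a retinol transporter, was at 9.55, 3.17, 2.49 and 1.55 CPM against 4.34, 0.710, 1.16 and 0.713 CPM (1.31 ± 0.20, adjusted p = 0.00113). Nos2, the inducible nitric oxide synthase, was at 2.11, 3.90, 0.467 and 1.19 CPM against 0.635, 1.88, 0.0503 and 0.204 CPM (1.55 ± 0.30, adjusted p = 0.00630). All 3 were higher in 4 of 4 pairs and stayed called with any pair left out. The rest of these genes did not: Cd5l (1.11), Dlc1 (1.13), Olfml2a (1.56), Timd2 (1.15) and Uaca (1.20) each lost the call with a pair left out. Their adjusted p then reached 0.175, 0.185, 0.150, 0.278 and 0.194.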
